A study of Mus musculus with 8 samples.

Results

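Hes1, Hes5, Hes6, Hey1, Hey2, Rbpj and Maml1 encode nuclear proteins of the Notch pathway, and their transcripts were followed in embryonic mouse lenses with and without a dominant-negative form of Brg1. The 7 genes were taken by name, with every probe set that the array annotation assigns to 1 of them alone, which gave 11 probe sets of 22626 that are not array controls, and 7 genes of 12393 with a probe set of their own. In that annotation, no probe set named a member together with another gene. Whether single probes match other transcripts was not examined. The dnBrg1 lens samples (dnBrg1 replicates 1 to 4) were compared with 4 wild type lens samples (wild type replicates 1 to 4), all whole lenses at embryonic day 15.5 (E15.5) on a mixed strain background, with 1 Affymetrix mouse genome array per sample. dnBrg1 is Brg1, the ATPase of SWI/SNF chromatin remodeling complexes, with a mutated ATP-binding site. It was made as a transgene from the αA-crystallin promoter, which drives it in lens fiber cells. The transgenic animals belong to 1 founder line and keep their own Brg1 alleles, and the wild type embryos lack the transgene. The question behind the comparison is how transcript levels in the developing lens change when Brg1 is inhibited in its fiber cells.

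Notch receptors are activated by Delta-like and Jagged ligands on neighboring cells, and the cleaved receptor moves to the nucleus. There it joins RBPJ, the DNA-binding protein of the pathway, and MAML1, a coactivator that recruits histone acetyltransferases, and genes of the Hes and Hey families are the best known targets of this complex. HES1, HES5, HEY1 and HEY2 are basic helix-loop-helix repressors that hold progenitor cells back from differentiation, while HES6 is a family member that opposes HES1 and favors differentiation in neural tissue. In the lens, Jag1 in fiber cells and Notch receptors in the epithelium balance proliferation against fiber cell differentiation.

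The stretches that precede the transcription start sites are shown for 3 of the genes, because RBPJ binds short sites near its targets and because these genes differed in their behavior in the dnBrg1 lenses: Hes5 was lower, Hes6 was higher and Hey2 did not pass the test. Start sites were found for 5 of the 7 genes in the RefSeq table of GRCm38.p6, and 250 bases before each start were searched on both strands for the RBPJ sites GTGGGAA and GTGAGAA and for the N box CACNAG, to which Hes proteins bind. RBPJ sites are in capitals (TTCCCAC is GTGGGAA read on the other strand), and the other bases are in lower case. The windows are chr4:154960673-154960922 (plus strand) for Hes5, chr10:30842784-30843033 (minus strand) for Hey2 and chr1:91413223-91413472 (minus strand) for the downstream start of Hes6.
Hes5: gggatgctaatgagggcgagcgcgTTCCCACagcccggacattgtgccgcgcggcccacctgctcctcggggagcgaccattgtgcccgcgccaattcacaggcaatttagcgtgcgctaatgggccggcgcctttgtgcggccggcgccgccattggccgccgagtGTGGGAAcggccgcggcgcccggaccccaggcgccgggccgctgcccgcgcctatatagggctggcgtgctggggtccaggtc
Hey2: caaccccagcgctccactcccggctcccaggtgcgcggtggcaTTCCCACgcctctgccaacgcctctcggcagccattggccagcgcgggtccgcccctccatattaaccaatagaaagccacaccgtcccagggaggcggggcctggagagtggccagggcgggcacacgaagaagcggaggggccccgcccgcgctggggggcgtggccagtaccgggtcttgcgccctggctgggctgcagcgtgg
Hes6: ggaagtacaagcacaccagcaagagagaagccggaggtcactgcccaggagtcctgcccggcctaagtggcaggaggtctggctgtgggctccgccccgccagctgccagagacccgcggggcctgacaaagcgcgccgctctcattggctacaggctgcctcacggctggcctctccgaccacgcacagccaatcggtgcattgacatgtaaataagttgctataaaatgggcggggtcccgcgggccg
The Hes5 window held 2 GTGGGAA sites, at -226 to -220 on the minus strand and at -83 to -77 on the plus strand, counted from the start site. The Hey2 window held 1, at -207 to -201 on the minus strand. Of 32851 mouse promoter windows of the same length, 9.0% held either RBPJ site and 0.5% held 2 or more. No RBPJ site was found in the windows of Hes6, Rbpj or Maml1. The Hes6 window shown has 1 N box, at -237 to -232, a motif that 36.7% of the windows hold. The window of the upstream Hes6 start, which is not shown, has no N box.

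The samples differed in ways that bear on every value. The deposited descriptions give dnBrg1 replicates 3 and 4 as total RNA only, whereas those of dnBrg1 replicates 1 and 2 and of the 4 wild type samples also mention polysome-bound RNA. The array's control probe sets at the 3' end of Gapdh were brighter than those at the 5' end by 0.67 ± 0.02 in dnBrg1 and 1.59 ± 0.58 in wild type lenses on the log2 scale (SD, n = 4 each), and for β-actin the difference was 0.58 ± 0.06 in dnBrg1 and 2.50 ± 0.48 in wild type lenses (SD, n = 4 each). This difference between the ends is a measure of RNA integrity and of how far amplification reached. Neither control overlapped between the groups (two-sided exact permutation test over 70 assignments, p = 0.0286 for each, the smallest that this design allows). Among the wild type samples, replicate 3 came closest to the dnBrg1 values, with 1.0 for Gapdh and 1.85 for β-actin. Smarca4, which encodes Brg1, was 5.10-fold higher in dnBrg1 lenses with 1 of its 2 probe sets (log2 fold change 2.35 ± 0.21 SE, limma adjusted p = 4.81e-05), and the other did not pass the test (-0.24 ± 0.11, adjusted p = 0.116). With the 3' minus 5' control difference as a covariate, the higher probe set kept its direction but did not pass (1.26, adjusted p = 0.0661). Median intensity of the arrays lay between 196.94 and 209.09. Below, a value for a sample is log2 intensity, fold changes set dnBrg1 over wild type, ± gives the standard error unless SD is named, and a probe set passed the test when its limma p, adjusted by Benjamini-Hochberg over the 22626 probe sets, was under 0.05.

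Of the 11 probe sets, 2 were higher in dnBrg1 lenses (both of Hes6), 6 were lower (both of Hes5, both of Maml1, 1 of Rbpj and that of Hes1) and 3 did not pass (Hey1, Hey2 and the brighter of Rbpj). Of all probe sets, 40.8% passed, 19.8% higher and 21.0% lower, and of those at or above the median intensity, as all 11 members are, 53.5% passed. The 2 groups did not overlap for 8 of the 11 probe sets, against 40.1% of all probe sets. The median fold change over the 11 probe sets was -0.37 on the log2 scale, against -0.08 over all. With 1 probe set per gene (the one with the highest mean), 1 member gene was higher and 3 were lower of 7, where 17.5% of all genes were higher, 23.3% lower and 40.7% either. The dimmest value of any member in any sample was 7.36 (Hes6, wild type replicates 1 and 2), while the 27 bacterial control probe sets of the array lay between 2.26 and 5.31. Because these are bulk lenses, fewer cells of a type and less RNA per cell cannot be told apart.

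**Figure D1:**
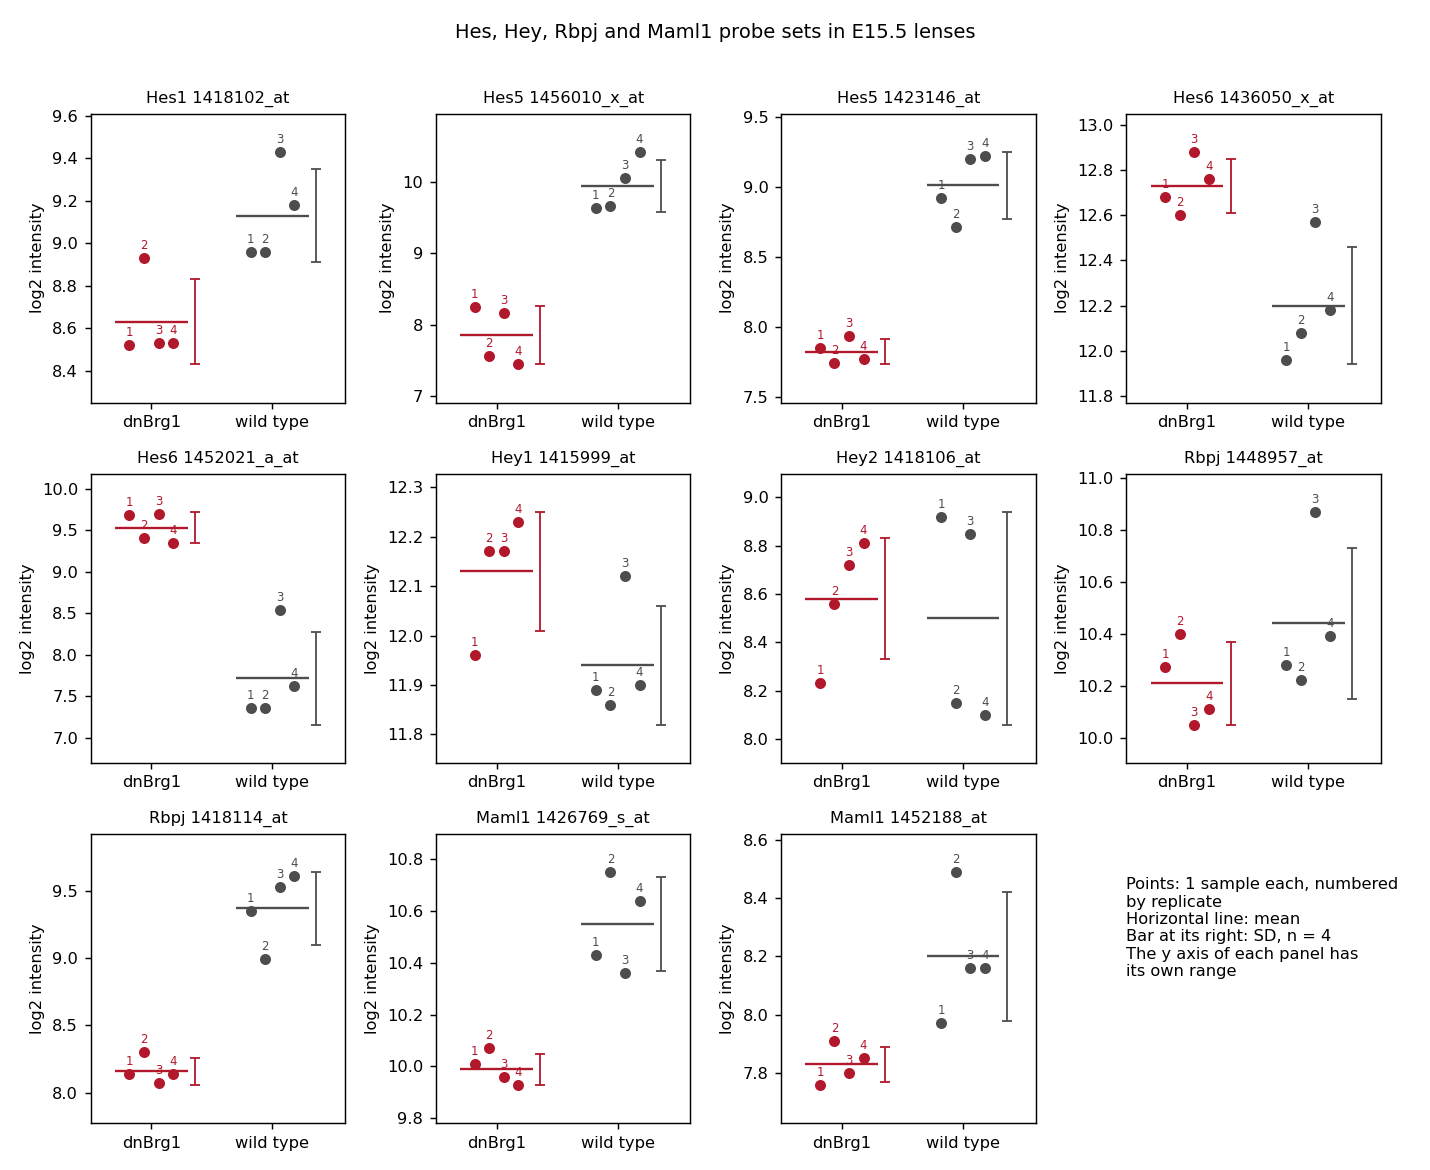
Log2 intensity (y axis, its own range in each panel) of the 11 probe sets of Hes1, Hes5, Hes6, Hey1, Hey2, Rbpj and Maml1 in dnBrg1 (red, left) and wild type (gray, right) lenses. Each point is 1 sample numbered by its replicate, lines are means and bars are SD (n = 4 each). The groups are separate in 8 panels and overlap for Hey1, Hey2 and Rbpj 1448957_at.

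Hes5, a Notch target in neural progenitors, had the largest change among the 7 genes, and both of its probe sets were lower. Probe set 1456010_x_at gave 8.25, 7.56, 8.16 and 7.44 in dnBrg1 replicates 1 to 4, against 9.64, 9.67, 10.06 and 10.43 in wild type replicates 1 to 4. All 4 dnBrg1 samples lay more than 1 log2 unit under all 4 wild type samples. The fold change was -2.10 ± 0.24 on the log2 scale, or 4.27-fold lower (adjusted p = 0.000155). Probe set 1423146_at gave 7.85, 7.74, 7.93 and 7.77 in dnBrg1 lenses, against 8.92, 8.71, 9.20 and 9.22 in wild type lenses, and the groups were again apart. Its fold change was -1.19 ± 0.13, or 2.28-fold lower (adjusted p = 0.000139). The 3' minus 5' control difference did not overlap between the groups, so a fit with it cannot separate RNA integrity from genotype. With this difference as a covariate, 1423146_at still passed (-1.64, adjusted p = 0.0194), and 1456010_x_at kept its direction but did not (-2.30, adjusted p = 0.0633). With dnBrg1 replicates 1 and 2 alone, whose description matches that of the wild type samples, both passed (-2.04, adjusted p = 0.00376, and -1.22, adjusted p = 0.00461).

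Hes5 is well known from the neural retina, which surrounds the lens, and markers of that tissue were measured beside it. Of the 10 genes listed as retinal progenitor markers, 7 were measured, and 3 of these were lower in dnBrg1 lenses, none higher and 4 did not pass. Their summed intensity ran from 15700 to 18800 in dnBrg1 and from 22600 to 26500 in wild type samples, and none was near the level of the dim controls: the weakest, Fabp7, averaged 8.18 in dnBrg1 and 8.72 in wild type lenses. Of 12 neuronal markers, 10 were measured, with 1 higher and 7 lower, and their summed intensity ran from 10100 to 15400 in dnBrg1 and from 12900 to 22100 in wild type samples. Lens genes dominated the arrays in both groups, with 13 of 17 markers measured, 4 of them higher and none lower, and a sum of 151000 to 163000 in dnBrg1 and 137000 to 148000 in wild type samples. All 10 listed macrophage markers were measured, with 3 higher and 4 lower. Their summed intensity ran from 2780 to 5740 in dnBrg1 and from 9070 to 11100 in wild type samples. The sums of the mesenchyme, pigment cell and surface ectoderm markers overlapped between the groups. The part of the retinal, neuronal and macrophage markers in the Hes5 values was not tested.

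Hes1, which encodes a repressor that Notch activity induces in many progenitor cells, was lower by a smaller amount. Its probe set 1418102_at gave 8.52, 8.93, 8.53 and 8.53 in dnBrg1 replicates 1 to 4, against 8.96, 8.96, 9.43 and 9.18 in wild type replicates 1 to 4. The groups did not overlap, but dnBrg1 replicate 2 lay within 0.1 of the lowest wild type samples. The fold change was -0.51 ± 0.15, or 1.42-fold lower (adjusted p = 0.0212). The call was lost without dnBrg1 replicate 1 (adjusted p = 0.0576), replicate 3 (0.0571) or replicate 4 (0.0594), without wild type replicate 4 (0.0509), with the described RNA as a covariate (-0.41, adjusted p = 0.133) and with the control covariate (-0.94, adjusted p = 0.124), and the direction was the same in all of these.

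Hes6 was the only one of the 7 genes that was higher in dnBrg1 lenses, and its 2 probe sets differed widely in how much. Probe set 1452021_a_at gave 9.68, 9.41, 9.70 and 9.34 in dnBrg1 lenses, against 7.36, 7.36, 8.54 and 7.62 in wild type lenses. The groups were apart, and wild type replicate 3 stood about 1 log2 unit above the other wild type samples. The fold change was 1.81 ± 0.25, or 3.50-fold higher (adjusted p = 0.000437). The brighter probe set, 1436050_x_at, gave 12.68, 12.60, 12.88 and 12.76 in dnBrg1 lenses, against 11.96, 12.08, 12.57 and 12.18 in wild type lenses, and wild type replicate 3 came within 0.1 of the lowest dnBrg1 sample. Its fold change was 0.53 ± 0.14, or 1.45-fold higher (adjusted p = 0.0146).

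Wild type replicate 3, the highest wild type sample with both Hes6 probe sets, was also the wild type sample with the smallest 3' minus 5' control difference. With that difference as a covariate, neither Hes6 probe set passed (0.60, adjusted p = 0.46 for 1452021_a_at, and 0.04, adjusted p = 0.952 for 1436050_x_at). The covariate nearly followed the groups, with 0.59 to 0.65 in dnBrg1 and 1.43 to 2.66 in wild type samples. RNA integrity and genotype therefore cannot be told apart for Hes6, nor for the genes whose calls held with this covariate. With the described RNA as a covariate, 1452021_a_at passed (1.82, adjusted p = 0.00455) and 1436050_x_at did not (0.44, adjusted p = 0.098).

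Hey1 and Hey2, the Hey family repressors that work downstream of Notch in blood vessels and other tissues, did not pass the test. Hey1 gave 11.96, 12.17, 12.17 and 12.23 in dnBrg1 lenses, against 11.89, 11.86, 12.12 and 11.90 in wild type lenses, with overlap at wild type replicate 3. Its fold change was 0.19 ± 0.11 (adjusted p = 0.184), with a 95% interval of -0.05 to 0.43, so an increase of up to 1.35-fold lies within the error. Hey2 gave 8.23, 8.56, 8.72 and 8.81 in dnBrg1 lenses, against 8.92, 8.15, 8.85 and 8.10 in wild type lenses. The wild type samples fell on both sides of the dnBrg1 samples, with replicates 1 and 3 high and replicates 2 and 4 low. The Hey2 fold change was 0.08 ± 0.22 (adjusted p = 0.795), with a 95% interval of -0.41 to 0.57, and its sign turned under several alternatives. Of 8 listed markers of vascular endothelium, where Hey genes are active, all were measured, 3 were higher, 2 were lower, and the summed intensity ran from 4510 to 5190 in dnBrg1 and from 4570 to 5070 in wild type samples.

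Rbpj, which encodes the DNA-binding partner of the cleaved Notch receptor, gave different answers with its 2 probe sets. Probe set 1418114_at gave 8.14, 8.30, 8.07 and 8.14 in dnBrg1 lenses, against 9.35, 8.99, 9.53 and 9.61 in wild type lenses, with no overlap. The fold change was -1.20 ± 0.14, or 2.30-fold lower (adjusted p = 0.000193). The brighter probe set, 1448957_at, gave 10.27, 10.40, 10.05 and 10.11 in dnBrg1 lenses, against 10.28, 10.22, 10.87 and 10.39 in wild type lenses. These groups overlapped, and wild type replicate 3 alone stood above the rest. The fold change was -0.23 ± 0.16 (adjusted p = 0.272), with a 95% interval of -0.58 to 0.12. For 1418114_at the call held with the control covariate (-1.70, adjusted p = 0.0215), and for 1448957_at the value there was -0.88 (adjusted p = 0.122). When both probe sets were averaged, Rbpj passed the test as lower (-0.72, adjusted p = 0.00271).

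Maml1, the coactivator that completes the Notch complex on DNA, was lower with both probe sets. Probe set 1426769_s_at gave 10.01, 10.07, 9.96 and 9.93 in dnBrg1 lenses, against 10.43, 10.75, 10.36 and 10.64 in wild type lenses. The dnBrg1 samples were tightly grouped below all wild type samples, and the fold change was -0.55 ± 0.11, or 1.47-fold lower (adjusted p = 0.00379). Probe set 1452188_at gave 7.76, 7.91, 7.80 and 7.85 in dnBrg1 lenses, against 7.97, 8.49, 8.16 and 8.16 in wild type lenses. Here wild type replicate 1 lay within 0.1 of dnBrg1 replicate 2, and the fold change was -0.37 ± 0.12 (adjusted p = 0.0388). This second call was lost without any 1 of dnBrg1 replicates 1 to 4 (adjusted p = 0.0948, 0.0584, 0.0846 and 0.0767) and without wild type replicate 2 (0.0698) or 4 (0.0668). Neither Maml1 probe set passed with the control covariate (-0.07, adjusted p = 0.87 for 1426769_s_at, and 0.05, adjusted p = 0.928 for 1452188_at), and with dnBrg1 replicates 1 and 2 alone 1426769_s_at had an adjusted p of 0.0545.

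**Figure D2:**
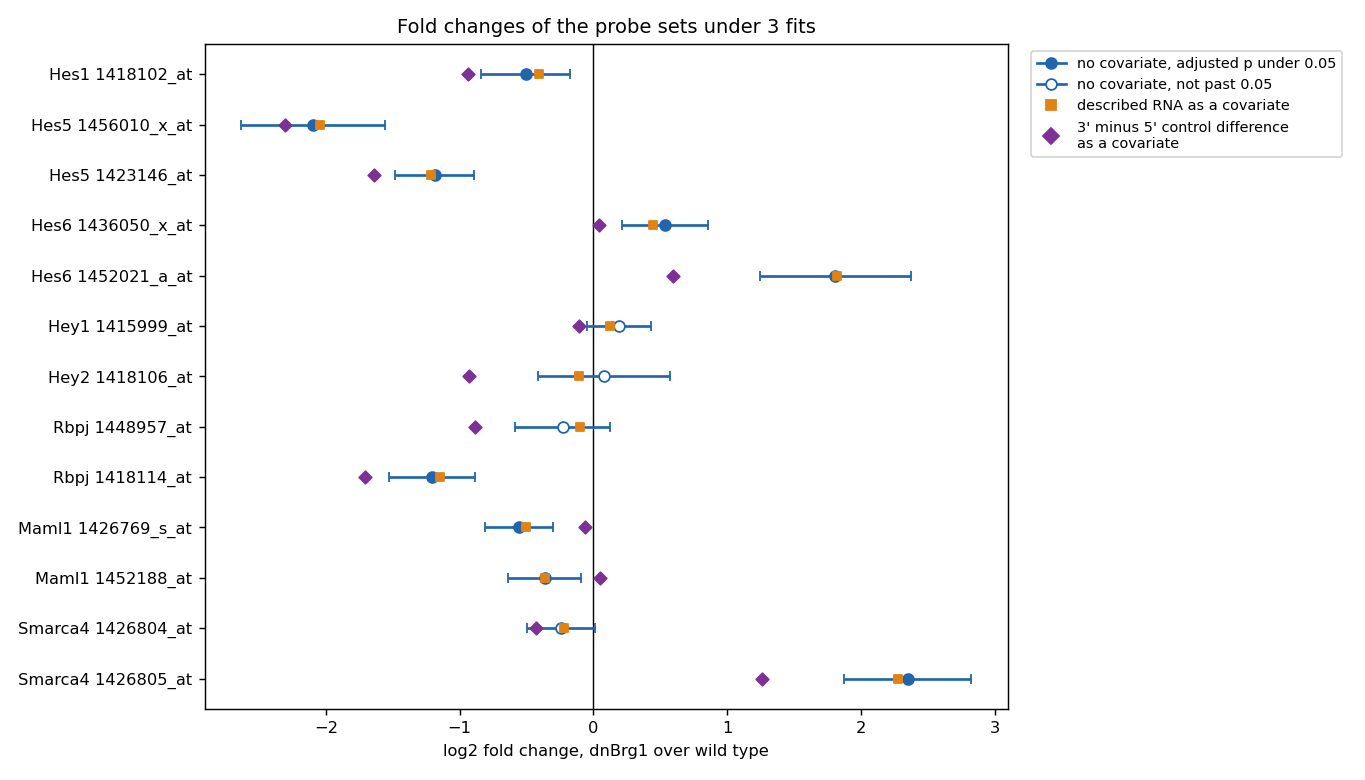
Log2 fold change, dnBrg1 over wild type (x axis), of the member probe sets and of Smarca4 (y axis). Circles with bars are the fit without covariates and its 95% interval (filled where the adjusted p is under 0.05), squares are the fit with the described RNA as a covariate, and diamonds are the fit with the 3' minus 5' control difference as a covariate. Hes5 and Rbpj 1418114_at stay low in all 3 fits, while the diamonds of Hes6 and Maml1 lie near 0 or closer to it.

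The genes with 2 probe sets allow a comparison within each sample, because the same RNA meets both probe sets. The brighter minus the dimmer probe set of Hes6 was 2.99, 3.20, 3.19 and 3.42 in dnBrg1 lenses, against 4.60, 4.72, 4.03 and 4.56 in wild type lenses. For Rbpj this difference was 2.13, 2.10, 1.98 and 1.97 in dnBrg1 lenses, against 0.94, 1.23, 1.34 and 0.78 in wild type lenses. The 2 genes thus ran in opposite directions, with a smaller difference in dnBrg1 lenses for Hes6 and a larger one for Rbpj, and neither overlapped between the groups. The Hes5 difference was 0.40, -0.18, 0.23 and -0.33 in dnBrg1 lenses, against 0.72, 0.96, 0.86 and 1.21 in wild type lenses. Each of these 3 genes reached p = 0.0286 (two-sided exact permutation test, the smallest possible, adjusted p = 0.0381 over 4 genes). Maml1 did not pass (means 2.16 in dnBrg1 and 2.35 in wild type lenses, exact p = 0.0571). The probe sets of Hes5, Hes6 and Rbpj did not change by the same amount, and a fold change of these genes depends on the probe set it is read from.

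**Figure D3:**
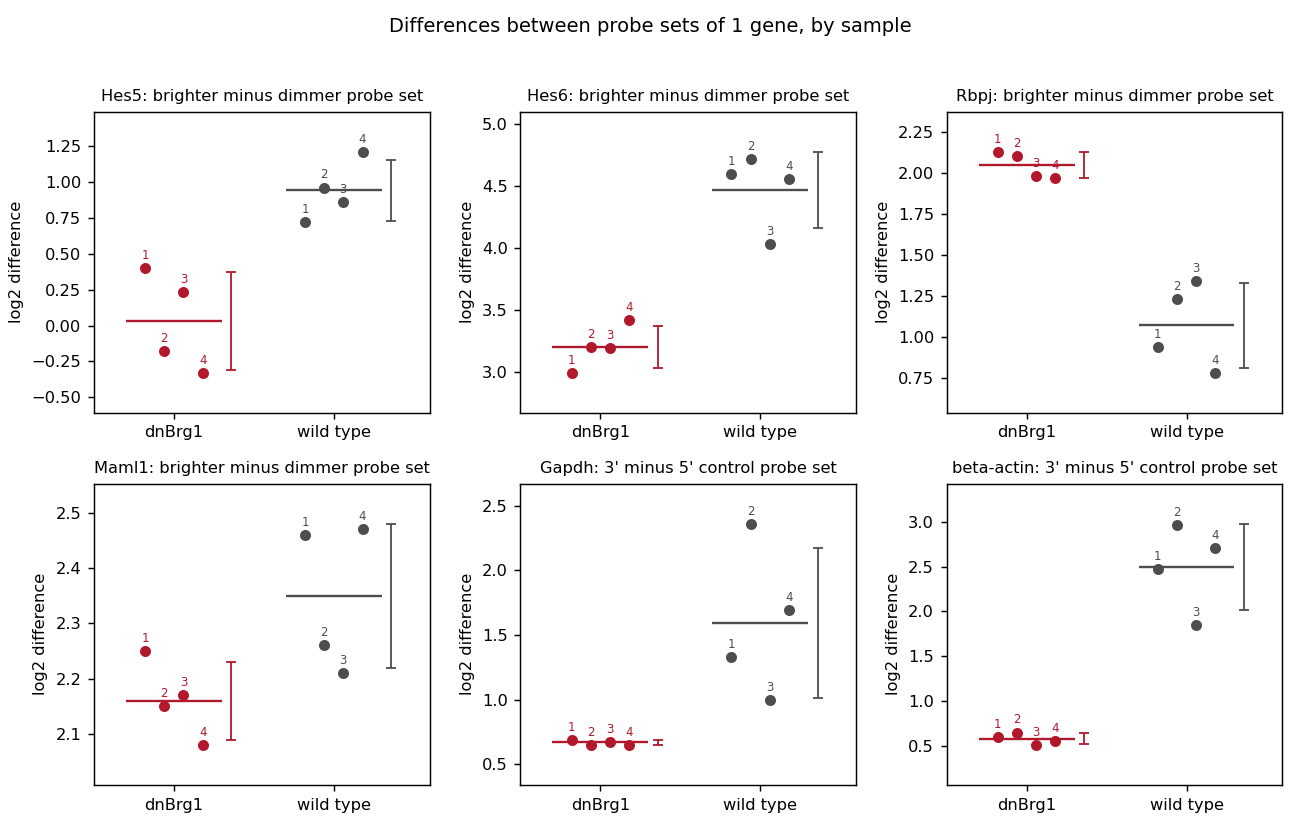
Log2 difference (y axis) between 2 probe sets of the same gene in dnBrg1 (red, left) and wild type (gray, right) lenses: brighter minus dimmer for Hes5, Hes6, Rbpj and Maml1, and 3' minus 5' for the Gapdh and β-actin controls of the array. Points are samples numbered by replicate, lines are means and bars are SD (n = 4 each). The groups are apart for Hes5, Hes6, Rbpj and both controls.

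Across the 8 samples, the patterns of the genes (with the probe set of the highest mean) were compared by Pearson correlation, as a description of points that share the 2 genotypes. Hes5 and Maml1 ran together (r = 0.88), as did Hes1 and Rbpj (r = 0.85) and Hes6 and Hey1 (r = 0.85), while Hes6 and Maml1 ran opposite (r = -0.88). Hey2 was least tied to the others, with r between -0.45 and 0.58. Among 6989 other genes at or above the median intensity, the 2 most like Hes5 were Paip1 (r = 0.99) and Gpsm1 (r = 0.99), and those most like Hes1 were Mttp (r = 0.98) and Ppp4r3a (r = 0.98). Hes6 was most like Egln1 (r = 0.99) and Otud6b (r = 0.98), Maml1 most like Mtmr2 and Atp1b2 (r above 0.99 for both), and Rbpj most like Akap8 (r = 0.98) and Adss (r = 0.97). For Hey1 they were Rdh10 (r = 0.96) and Pbxip1 (r = 0.95), and for Hey2 they were Ndufs3 (r = 0.94) and Stxbp3 (r = 0.88).

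The genes that act upstream of Rbpj were mostly lower where they passed the test. With the brighter probe set of each, all 4 Notch receptors were lower, Notch2 by 0.86 (SE 0.16, adjusted p = 0.00231), Notch1 by 0.63 (SE 0.12, adjusted p = 0.00315), Notch3 by 0.53 (SE 0.12, adjusted p = 0.00748) and Notch4 by 0.89 (SE 0.29, adjusted p = 0.0327) on the log2 scale, with a list median of -0.75 against -0.11 for all genes. The other Notch3 probe set, 1421964_at, did not pass (0.096, adjusted p = 0.588), nor did the average of both (-0.22, adjusted p = 0.13). Notch4 overlapped between the groups, and its call was lost without dnBrg1 replicate 1 (adjusted p = 0.0841), 2 (0.0848) or 4 (0.0611) or wild type replicate 1 (0.0655), 2 (0.0771) or 4 (0.0873). Of 6 ligands, 4 were lower and none higher with the brightest probe set of each. Jag1, the ligand with the best known role in the lens, gave 9.89, 10.11, 9.42 and 10.01 in dnBrg1 lenses, against 11.71, 11.25, 11.84 and 11.76 in wild type lenses, a fold change of -1.78 ± 0.18 (adjusted p = 8.98e-05) that also passed with the control covariate (-2.38, adjusted p = 0.0202). Dll3 (-1.99) and Jag2 (-0.52) were lower as well. Dll4 was lower with its brighter probe set (-0.65, adjusted p = 0.00502) and higher with 1421826_at (0.77, adjusted p = 0.0124), and the average of both was 0.061 (adjusted p = 0.77). With the control covariate, none of the receptors passed (adjusted p = 0.132 for Notch2, 0.302 for Notch1, 0.811 for Notch3 and 0.792 for Notch4, whose sign turned), nor did Dll3 (0.491), Dll4 (0.302) or Jag2 (0.0966). Of all 81 pathway genes measured, 2 were then higher and 2 lower, the lower ones being Jag1 and Dtx2. None of the 11 pathway genes that were higher without the covariate kept its call. The 2 higher ones are therefore genes that had not passed before.

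The steps between ligand and cleaved receptor moved in both directions. Of 5 genes for receptor glycosylation only Mfng, a fringe glycosyltransferase, passed (-0.96 ± 0.20, adjusted p = 0.0046). Of 7 measured genes for receptor cleavage, the γ-secretase subunits Aph1a (1.14 ± 0.26, adjusted p = 0.0067) and Psenen (-0.67 ± 0.12, adjusted p = 0.0015) passed, in opposite directions. Aph1a was also higher with 1451554_a_at (0.62, adjusted p = 0.00393) but lower with 1424979_at (-0.33, adjusted p = 0.0416). Of 11 measured genes for ligand endocytosis and receptor turnover, 5 were lower and 1 higher. The lower ones are the Deltex genes Dtx1 (-1.89 ± 0.22, adjusted p = 0.000187), Dtx2 (-1.52 ± 0.12, adjusted p = 2.47e-05) and Dtx3 (-1.20 ± 0.18, adjusted p = 0.000685) and the ubiquitin ligases for Notch ligands Mib2 (-1.06) and Mib1 (-0.41). The higher one is Itch (0.72 ± 0.16, adjusted p = 0.0055), a ubiquitin ligase that acts on Notch. The other Dtx2 probe set, 1421720_a_at, did not pass (0.12, adjusted p = 0.387), and the groups overlapped there.

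Around Rbpj and Maml1, coactivators and corepressors changed without a common direction. Of 5 measured coactivators, Crebbp, a histone acetyltransferase, was lower (-1.05 ± 0.12, adjusted p = 0.000186) and Maml2 passed as higher (adjusted p = 0.00323). All 8 Maml2 values, 3.90 to 4.48 in dnBrg1 and 3.13 to 3.73 in wild type lenses, lay within the range of the bacterial controls, so no fold change is given. Of 9 measured corepressors of Rbpj, 3 were higher and 3 lower with the brightest probe set of each. Spen, a scaffold of the Rbpj repressor complex, rose by 1.54 ± 0.17 (adjusted p = 0.000152), Hdac2 by 1.23 ± 0.26 (adjusted p = 0.00438) and Cir1 by 0.49 ± 0.15 (adjusted p = 0.0286), and Hdac1 (-0.77) and Rita1 (-0.64) fell. Ctbp2 was lower with 1434705_at (-0.52, adjusted p = 0.00607) but higher with 1422887_a_at (1.11, adjusted p = 0.000105), and the average of both passed as higher (0.29, adjusted p = 0.0339). The Cir1 call was lost without dnBrg1 replicate 1 (adjusted p = 0.0544), 2 (0.0738) or 4 (0.0671) or wild type replicate 1 (0.0714) or 2 (0.0531). The Groucho family includes corepressors that Hes proteins recruit. Of its 6 listed genes, Tle5 was higher (1.20 ± 0.12, adjusted p = 6.41e-05), Tle4 was lower (-0.54 ± 0.11, adjusted p = 0.00327) and 4 did not pass. Whether Tle5 acts as a corepressor was not tested. Of the 7 other Hes and Hey family genes measured, none passed. The means of Hes2 (4.14), Hes3 (4.49), Hes7 (4.41), Bhlhe41 (4.60) and Rbpjl (5.0) lay within the range of the bacterial controls, so a change in these 5 was not measurable here.

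Of 8 measured proneural genes, which Hes repressors hold down in neural progenitors, 5 were lower and none higher, with a list median of -0.95 against -0.11 for all genes. These were Ptf1a (-1.19 ± 0.34, adjusted p = 0.0185), Atoh7 (-1.08 ± 0.12, adjusted p = 0.000134), Neurod4 (-1.07 ± 0.30, adjusted p = 0.0174), Neurog2 (-0.89 ± 0.18, adjusted p = 0.00383) and Neurog1 (adjusted p = 0.00959). All 4 dnBrg1 values of Neurog1, 4.44 to 5.03, lay within the range of the bacterial controls, against 5.02 to 6.24 in wild type lenses, so its fold change is not given. Neurod1 (-0.59, adjusted p = 0.0861), Neurog3 (adjusted p = 0.475) and Atoh1 did not pass, and the means of Neurog3 (5.13) and Atoh1 (2.86) lay within the range of the bacterial controls. Hes5 and the 5 proneural genes that passed were lower in the same dnBrg1 lenses, in which the retinal and neuronal marker sums given above were also lower or overlapped the wild type range, and the part of those markers was not tested. Atoh7 is on both the proneural list and the retinal progenitor marker list, so the values of these lists are not fully separate. With the described RNA as a covariate, Ptf1a (adjusted p = 0.136), Neurod4 (0.136) and Neurog1 (0.0782) did not pass. The Ptf1a call was also lost without dnBrg1 replicate 3 (adjusted p = 0.0531) or 4 (0.0519) and with the methods' t-test after adjustment (0.0654), and that of Neurod4 with the replicate block (0.0534), array weights (0.0577) and the methods' t-test after adjustment (0.0614). Among Id and E proteins, which bind helix-loop-helix factors, Id3 (1.09 ± 0.13, adjusted p = 0.00024), Id1 (0.87 ± 0.20, adjusted p = 0.00714) and Tcf12 (0.33 ± 0.11, adjusted p = 0.0448) were higher and Id4 was lower (-0.64 ± 0.11, adjusted p = 0.00176). Tcf12 lost its call without dnBrg1 replicate 1 (adjusted p = 0.0952), 2 (0.0542), 3 (0.116) or 4 (0.0789) or wild type replicate 1 (0.109), 3 (0.0543) or 4 (0.108), and when the arrays were scaled in another way, and its other probe set, 1421908_a_at, was lower (-0.41, adjusted p = 0.0253).

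Of 6 cell cycle and epithelial genes that Notch loss affects in the lens, 1 was higher and 2 lower with the brightest probe set of each. Cdkn1b, the cell cycle inhibitor p27, was lower with its brighter probe set (-0.89 ± 0.12, adjusted p = 0.000408) but higher with 1419497_at (1.61 ± 0.40, adjusted p = 0.0107), without overlap of the groups in either, and the average of both was 0.36 (adjusted p = 0.23). Cdkn1c, the inhibitor p57 of fiber cells, was lower (-0.30 ± 0.10, adjusted p = 0.0434), and Myc was higher (0.63 ± 0.21, adjusted p = 0.0381). Cdkn1c lost its call without dnBrg1 replicate 1 (adjusted p = 0.0805), 2 (0.0944) or 3 (0.115) or wild type replicate 1 (0.091), 2 (0.0892) or 3 (0.0546). Myc lost its call without dnBrg1 replicate 1 (0.0983) or 2 (0.0998) or wild type replicate 1 (0.0809), 2 (0.0562) or 4 (0.0945). Over all 12 lists, 81 of 92 pathway genes were measured, and 11 were higher, 28 lower and 42 did not pass, so 48.1% passed against 40.7% of all genes.

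**Figure D4:**
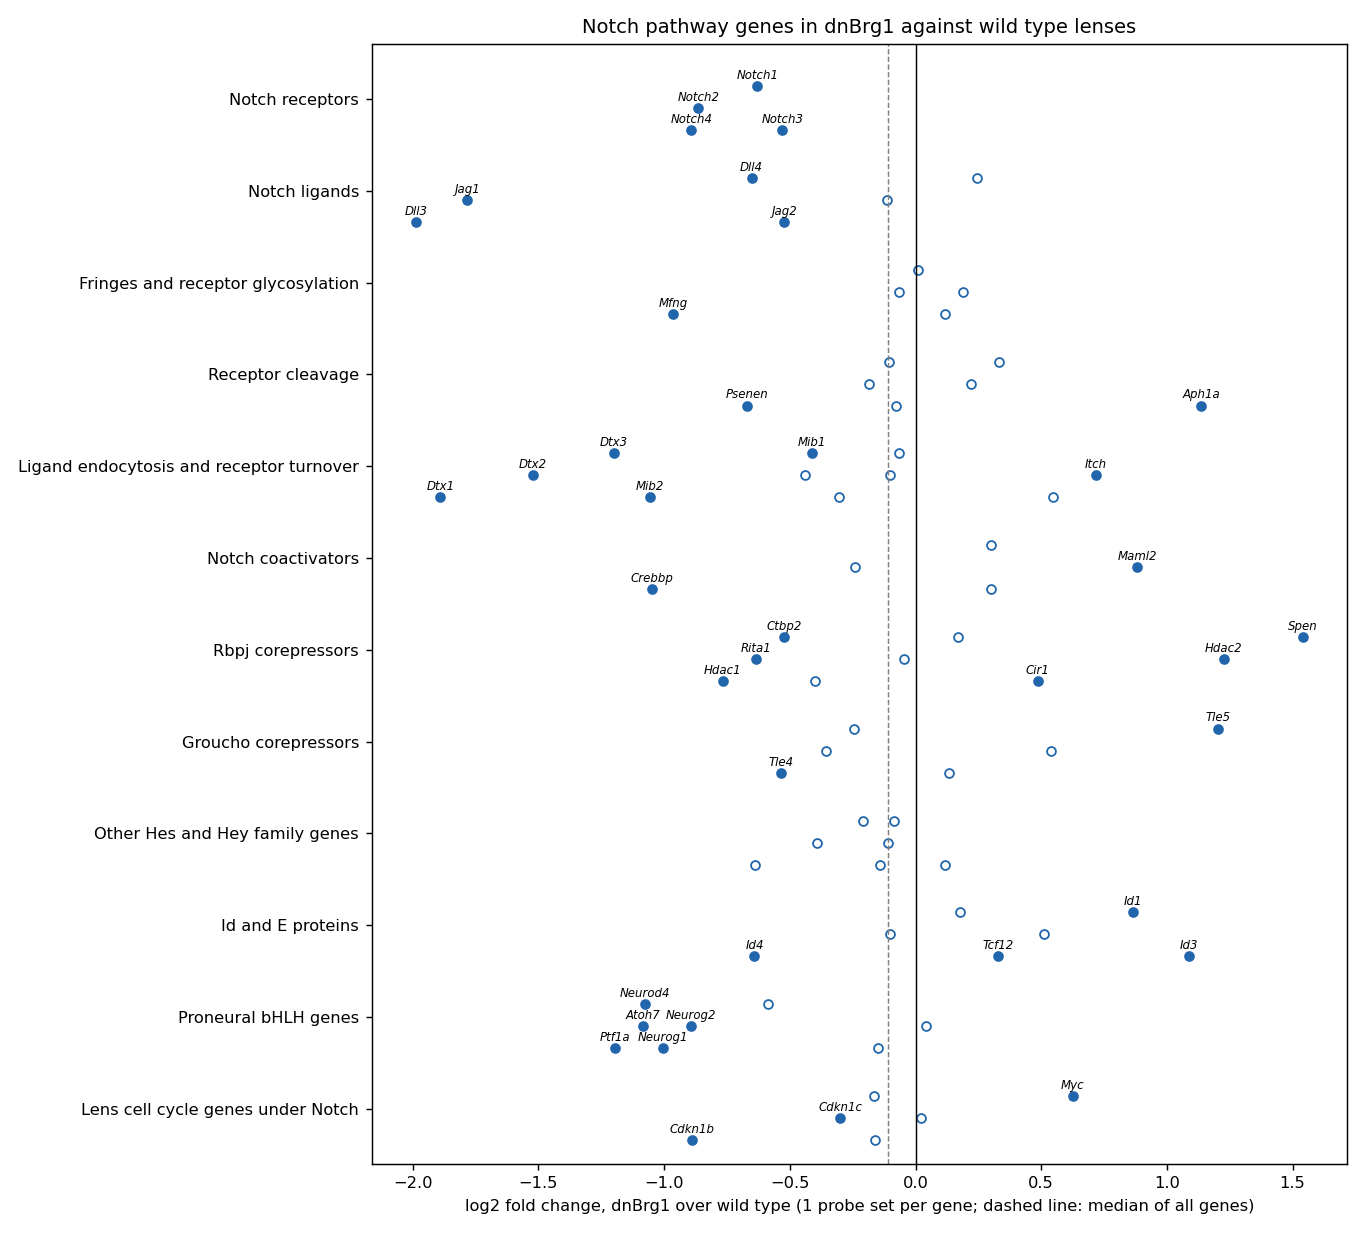
Log2 fold change, dnBrg1 over wild type (x axis), of 81 Notch pathway genes by list (y axis), with 1 probe set per gene. Filled points passed the test and are named, open points did not, and the dashed line is the median of all genes (-0.11). The 4 receptors and the 5 named proneural genes lie left of the line, while the corepressors of Rbpj fall on both sides.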

How the data were processed

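Whole-lens samples from E15.5 embryos, 4 dnBrg1 and 4 wild type, were profiled on Affymetrix arrays after NuGEN Ovation amplification of 50 ng RNA. The authors processed the scans with robust multichip average (RMA; version not stated here). The deposited values are linear intensities, taken to log2 here. RMA corrects background, equalizes the distributions of the arrays and combines the probes of a set, and it would remove a change common to most transcripts. Groups follow the sample titles. The samples are described as biological replicates, the p-values measure the spread between them, and their number limits the precision.

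Of 22690 probe sets, 22626 were tested after removal of 64 array controls. The platform annotation assigns 20380 to 1 gene, 691 to several and 1555 to none, and only the first were used for genes. Each probe set was fitted as dnBrg1 minus wild type in R 4.3.3 with the lmFit and eBayes functions of limma 3.58.1. No covariate or filter was used, and the threshold was 0.05 after Benjamini-Hochberg adjustment. A gene was represented by its probe set with the highest mean over the 8 samples. Single differences were compared by exact permutation (scipy 1.17.1). When 200 of 22626 simulated probe sets were changed, this fit recovered 23% of 1.5-fold and 65% of 2-fold changes, with 3 false calls of 91. In the real data 40.8% of probe sets passed, far more than in the simulation. The adjusted threshold therefore fell at another raw p, and these shares do not give the sensitivity of the real fit. Promoter windows are from RefSeq (GRCm38.p6), with start sites for 5 of the 7 genes.

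The 7 genes, the 12 pathway lists and the 8 marker lists were chosen with earlier results of these data known. Named were the 7 genes with every probe set, Smarca4, up to 4 called genes per list and direction with the largest change, and the 2 genes most correlated with each member. Mib1, Neurog2 and the uncalled proneural and dim Hes and Hey family genes complete small counts, and Fabp7 and the further probe sets of the pathway genes illustrate ranges. All of these were chosen after their values were seen. Alternatives covered scaling, an added constant of 16, array weights, the variance model, a filter on dim probe sets, leaving out each sample, the replicate block, the described RNA, the 3' to 5' control difference, stricter thresholds, Student's test as in the study's methods and the mean of a gene's probe sets. Significance analysis of microarrays was not run.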

Additional observations from a re-analysis of the deposited data

Results flagged for a closer look

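Among 4 samples of a group, 1 sample stood apart from the other 3 in 4 of 104 groups examined (Dixon's test, 95% level). Chance flags about 1 in 20 groups. In dnBrg1 lenses, replicate 2 had a Hes1 value of 8.93 while the other 3 lay between 8.52 and 8.53, and it had a Notch1 value of 11.14 while the others lay between 10.88 and 10.92. In wild type lenses, replicate 3 had a Hey1 value of 12.12 while the others lay between 11.86 and 11.90, and replicate 1 had an Id4 value of 10.25 while the others lay between 10.44 and 10.48.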

How the results depend on the processing

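Quantile normalization, centering each array on its median, a constant of 16, bright probe sets alone and both forms of Student's test left the member counts at 2 higher and 6 lower, and trended and robust moderation and array weights gave 2 higher and 5 lower. With dnBrg1 replicates 1 and 2 alone, 1 member probe set was higher and 3 lower, 0 member genes were higher and 1 lower, 7 pathway genes were higher, and 2600 of all probe sets were lower. With replicates 3 and 4 alone, 1 member probe set and 0 member genes were higher, 6 pathway genes were higher and 2825 probe sets were lower. With the described RNA as a covariate, 1 member probe set and 0 member genes were higher and 3114 probe sets were lower. At an adjusted p under 0.01, 1 member probe set and 0 member genes were higher and 2820 probe sets lower. At a 1.5-fold minimum, 1 member probe set was higher and 3 lower, 0 member genes were higher and 1 lower, and 2996 probe sets were lower. Averaging the probe sets of each gene gave 20 pathway genes higher.

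The 3' minus 5' control difference as a covariate moved most results: 0 member probe sets were higher and 2 lower, 0 member genes were higher and 0 lower, 2 pathway genes were higher and 2 lower, and 808 probe sets were higher and 634 lower. The 2 higher pathway genes were not among those higher without the covariate. The median fold change of the member probe sets became -0.88, and that of the pathway genes -0.30 instead of -0.16. With the control covariate the sign turned for Hey1 (-0.11), Hey2 (-0.93), Maml1 1452188_at (0.051), Notch4 (0.31), Mfng (0.034), Aph1a (-0.20), Hdac2 (-0.089), Cir1 (-0.16), Hdac1 (0.078), Id1 (-0.12) and Ptf1a (0.32). Hey2 also turned with array weights (-0.018) and with dnBrg1 replicates 1 and 2 alone (-0.10), and ran from -0.055 to 0.22 with 1 sample left out. With the described RNA as a covariate, each fold change is by construction that of dnBrg1 replicates 1 and 2 alone (-0.10 for Hey2). These fits are therefore not separate alternatives for a sign. With averaged probe sets, the sign turned for Smarca4 (1.05), Dll4 (0.061), Ctbp2 (0.29), Tcf12 (-0.043) and Cdkn1b (0.36). Beyond the construction of the smaller fits, the cause was not tested.

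With 1 sample left out, 2 member probe sets were higher and 4 to 6 lower. The genotype difference of the control probe sets ran from -1.13 to -0.67 for Gapdh and from -2.14 to -1.77 for β-actin, where 35 assignments allow no p under 0.0571. With dnBrg1 replicates 1 and 2 alone it was -0.92 and -1.87, and with replicates 3 and 4 alone -0.94 and -1.97 (exact p = 0.133 for each). Samples with the same replicate number did not deviate together (r between -0.19 and 0.16). The study's methods name the wild type samples as littermates. With so few samples, these correlations cannot decide whether samples with the same number come from 1 litter. With the replicate number as a block, 2 member probe sets were higher and 4 lower, Hes1 had an adjusted p of 0.0557 and Maml1 1452188_at of 0.0547, and 9 pathway genes were higher and 26 lower.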

Other observations

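Some pathway genes had further probe sets that passed in the same direction. Jag1 was lower with both (-1.78 for 1421106_at and -0.64 for 1421105_at), as were Notch1 (-0.63 and -0.50) and Atoh7 (-1.08 and -0.87). Those of other genes called lower did not pass: Notch2 (-0.33, adjusted p = 0.116), Notch4 (-0.85, 0.0575), Jag2 (-0.19, 0.223), Tle4 (-0.04, 0.832) and Id4 (-0.34, 0.063, and -0.06, 0.736). The average of both Tle4 probe sets did not pass either (-0.29, adjusted p = 0.0789). The further probe sets of Neurod4 (mean 3.3) and Neurog1 (mean 3.9), which also did not pass, averaged within the range of the bacterial controls. Which transcripts these probe sets detect was not tested, nor was it for the genes whose probe sets passed in opposite directions (Aph1a, Cdkn1b, Ctbp2, Dll4 and Tcf12).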
